A study of Mus musculus with 22 samples.

Results

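The genes described here encode the proteins of the cytosolic ribosome and their close copies. They were chosen by symbol alone: a row was taken when its symbol began with Rpl or Rps and a digit, or was Rplp0, Rplp1, Rplp2 or Rpsa. Symbols carrying the pseudogene mark -ps, the kinases whose symbols begin with Rps6k, and Rps19bp1 were left out. This gave 92 of the 34866 genes in each culture table and 89 of the 23911 genes in the main cartilage table. Of the 92, 46 encode proteins of the large subunit and 31 proteins of the small subunit, and these 77 are called core genes below. A further 9 were listed copies (paralogs) of core genes, among them Rps4l, which the annotation also calls a pseudogene. The other 6 were annotated processed pseudogenes, or retrocopies, which are messages copied back into the genome.

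The mice carried loxP-flanked Dnmt1, the gene of the maintenance DNA methyltransferase. In the cKO group it was deleted by a Prrx1-Cre transgene (Prrx1-Cre;Dnmt1 flox/flox), whose promoter acts in limb mesenchyme, and the controls carried floxed Dnmt1 (Dnmt1 flox) as well. Cultures were primary chondrocytes from knee cartilage of pups at postnatal days 3 to 5, untreated at day 0 (3 control and 3 cKO samples) or after 3 days with BMP2, labelled as 100 ng/µl (4 and 4). Cartilage came from mice at postnatal day 5 and was treated with collagenase (4 control and 4 cKO samples, replicates 1 and 2 male and replicates 3 and 4 female in both). The labels do not say whether samples were separate animals or pools, so the p-values measure only the spread between these samples. All control cartilage libraries were in pool 1 and all cKO cartilage libraries in pool 2, so pool and genotype cannot be told apart there.

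A ribosome joins a small subunit, which reads the messenger RNA, to a large subunit, which links the amino acids, and every growing cell makes both in equal numbers. The messages of ribosomal proteins begin with a run of pyrimidines (the 5′ terminal oligopyrimidine tract) through which mTORC1 and Larp1 adjust their translation and stability together. Mammals also keep a few copies of ribosomal protein genes, some of them autosomal copies of X-linked parents that are known from the male germ line, where the X chromosome is silenced. Cartilage is a tissue of heavy matrix protein synthesis, and mutations of some ribosomal protein genes shorten bones or stop their growth.

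Total counts per library lay between 41749327 and 51741478 at day 0. They lay between 14434197 and 18918714 at day 3, and the main cartilage table held 1100198 to 1888896. At day 3, cKO replicate 4 stood apart: comparing its counts with those of each other cKO culture gave a chi-square, divided by its degrees of freedom, between 134.2 and 149.5, while pairs of the others gave 7.89 to 11.6. Dnmt1 was lower in cKO samples in all 3 settings, with no overlap. At day 0 it lay between 147.1 and 158.9 CPM (counts scaled to a common library size by the TMM method) in controls and between 25.7 and 31.3 CPM in cKO samples, a log2 fold change of −2.44. At day 3 the log2 fold change was −1.41 and in cartilage −1.66 (edgeR adjusted p 1.62e-08, 0.00625 and 6.34e-05 in the 3 settings). Genes are described as called where edgeR's quasi-likelihood test, adjusted over all genes, gave a p under 0.05, and every adjusted p below is from that test. Log2 fold changes are cKO over control, and negative values are lower in cKO samples.

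In untreated cultures almost all core genes were lower in the cKO samples, each by a similar and modest amount. Of the 92 genes, 88 passed the filter on low counts, 78 were called lower and 3 higher, beside 31.6% and 33% (64.5% in either direction) of all 15530 genes tested. The median log2 fold change over the 88 was −0.30, a level 18.8% lower, with a range of −0.36 to −0.23 between the quartiles, and that over all genes tested was 0.01. In 79 of the 88 every cKO sample lay below every control sample, which held for 34.4% of all genes tested. In 4 every cKO sample lay above every control, beside 35.9%. The subunits fell alike: 44 of 46 large subunit genes (median −0.30) and 29 of 31 small subunit genes (median −0.31) were called lower.

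The stalk proteins, which recruit elongation factors to the large subunit, show the size of the difference. Rplp0, the base of the stalk, stood at 1749.8, 1707 and 1673 CPM in the controls and 1332, 1349 and 1288 CPM in the cKO samples. These groups lay far apart relative to their spread (1709.9 ± 38.4 and 1323 ± 31.5 CPM, SD, n = 3 each), with a log2 fold change of −0.37 (edgeR adjusted p 9.32e-05, SE 0.046). Rplp1 fell by 0.42 and Rplp2 by 0.23 on the log2 scale (edgeR adjusted p 1.38e-05 and 2.03e-04). The core gene that fell most was Rpl12, a protein at the foot of the stalk, with 65.1 ± 1.42 CPM in control and 47.5 ± 3.90 CPM in cKO samples (SD, n = 3 each), a fall of 0.46 on the log2 scale (edgeR adjusted p 1.01e-04). Rpl22, a nonessential large subunit protein, fell by 0.43 and its paralog Rpl22l1 by 0.47 (edgeR adjusted p 3.48e-06 and 3.63e-04).

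The 4 core genes not called at day 0 were Rpl5, Rpl10a, Rps2 and Rps27. Rpl5 and Rpl11 bind 5S ribosomal RNA and, as the 5S particle, hold Mdm2 when ribosome assembly fails. Rpl5 had 41.7, 43.6 and 40.1 CPM in controls and 43.3, 43.3 and 45.2 CPM in cKO samples, ranges that overlapped (log2 fold change 0.07, edgeR adjusted p 0.189). Rpl11 in the same samples was lower, at 455.7 ± 6.41 against 388.2 ± 7.49 CPM (SD, n = 3 each), a fall of 0.23 on the log2 scale (edgeR adjusted p 2.05e-04). The log2 fold changes of Rpl10a, Rps2 and Rps27 were −0.21, −0.05 and −0.39 (edgeR adjusted p 0.0799, 0.40 and 0.191). Levels of some of these genes were low for core genes. Per annotated exon length, Rpl5, Rps27 and Rpl12 ranked 3836, 4936 and 2370 among all genes in day 0 controls. Of the 77 core genes, 69 were among the 500 highest. In control cartilage the mean of Rpl12 was 797.8 or 38.0 CPM, depending on the count table. Whether such genes were undercounted in the cultures was not tested. When all 14 cultures were fitted together, with 1 estimate of spread, 33 genes were still called lower at day 0. With total counts alone as scaling the median was −0.19 against an all-gene median of 0.12.

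After 3 days of BMP2 most of the genes were again lower in the cKO samples. Of 85 genes tested, 76 were called lower and 2 higher, beside 22.6% and 25.5% (48.1% in either direction) of all 13924 genes tested. The median log2 fold change was −0.56, a level 31.9% lower, and that over all genes tested was 0.01. Called lower were 44 of 46 large subunit genes (median −0.56) and 30 of 31 small subunit genes (median −0.58). No overlap between the groups, with cKO samples lower, was seen for 67 of the 85, beside 22.7% of all genes tested, and with cKO samples higher for 2, beside 25.2%.

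Rplp0 was again among the most reduced, with 2518, 2099.7, 1752 and 2288 CPM in the controls and 1087, 1230, 1293 and 899.2 CPM in the cKO samples. The highest cKO sample was below the lowest control (2164 ± 324 against 1127 ± 174.7 CPM, SD, n = 4 each), and the fall was 0.94 on the log2 scale (edgeR adjusted p 0.00156, SE 0.158). Rpl13a, which also serves outside the ribosome in silencing inflammatory messages, stood at 1782 ± 326.7 CPM in controls and 957.7 ± 60.1 CPM in cKO samples (SD, n = 4 each), a fall of 0.90 on the log2 scale (edgeR adjusted p 0.00131). Rpl12 and Rplp1 fell by 0.83 and 0.79 on the log2 scale (edgeR adjusted p 0.00461 and 0.00258). Rplp2 fell by 0.41 (edgeR adjusted p 0.0143). Of the core genes, Rpl5 (−0.32), Rpl27 (−0.12) and Rps27 (−0.32) were not called (edgeR adjusted p 0.063, 0.602 and 0.593). Leaving out single samples gave 64 to 78 genes called lower, with the count at 77 and the median at −0.51 without cKO replicate 4.

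**Figure D1:**
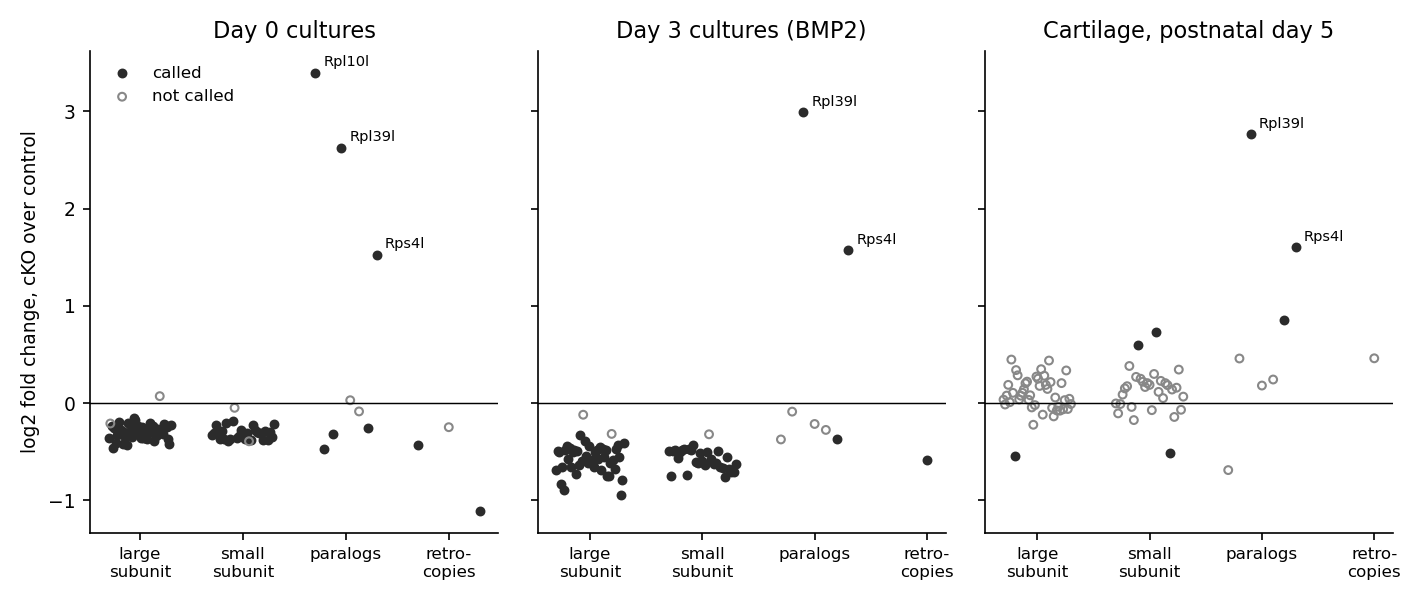
Log2 fold change, cKO over control, of each tested gene in the 3 settings (vertical axis), split into large subunit, small subunit, paralogs, and pseudogenes or retrocopies (horizontal axis, order within a class alphabetical). Filled points were called and open points were not. Core genes form a band below 0 in both cultures and around 0 in cartilage, and Rpl39l and Rps4l stand above 0 in all 3. The value of Rpl10l depends on the prior count, since its controls were at the floor.

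The position of the core genes was also taken in each library. Relative to the mean of the controls, the median core gene stood at −0.30, −0.30 and −0.32 (log2) in the 3 cKO samples of day 0, against −0.01 to 0.02 in the controls. At day 3 the controls themselves were spread out, at 0.18, −0.07, −0.29 and 0.13, with quartiles of −0.32 to −0.27 in control replicate 3. Quartiles were wider in cKO libraries, −0.61 to −0.40 in replicate 2 and −0.88 to −0.60 in replicate 4; the controls are measured against their own mean. The cKO samples of day 3 stood at −0.62, −0.48, −0.48 and −0.67, all below control replicate 3. So the day 3 groups did not overlap, but the gap between the nearest samples was smaller than the range of the controls.

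**Figure D2:**
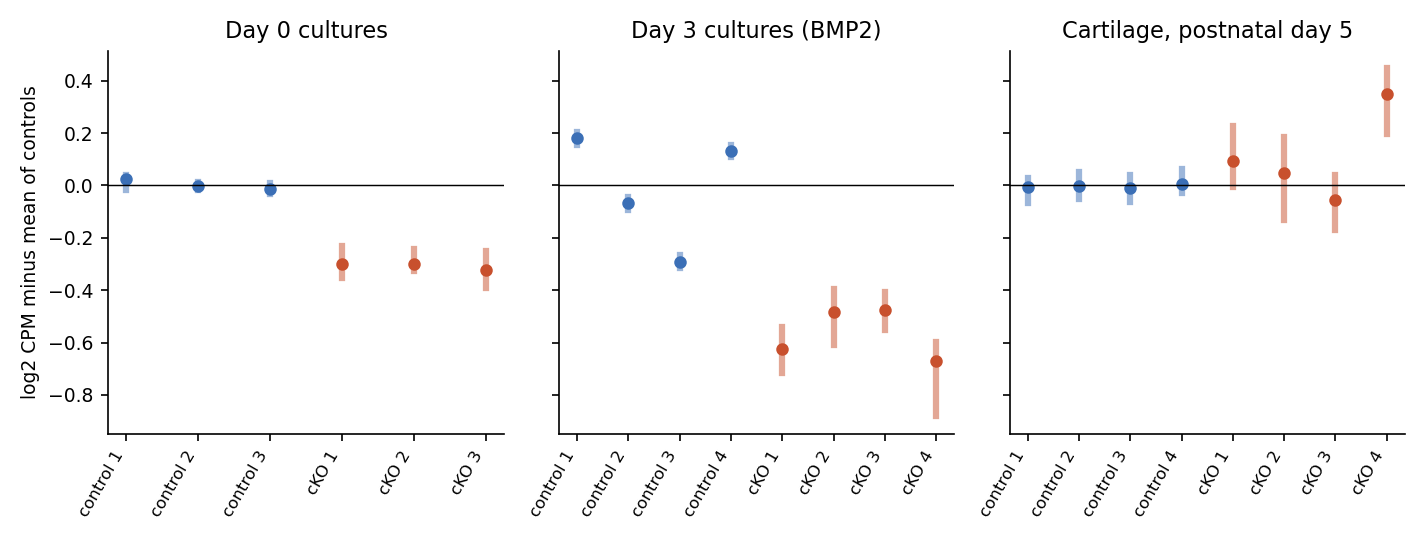
Level of the 77 core genes in each library relative to the mean of the controls (vertical axis, log2), with the median (point) and the quartiles (bar), for control (blue) and cKO (orange) samples. The cKO libraries of both cultures lie below all control libraries, while the cartilage cKO libraries range from −0.06 to 0.35.

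Between the 2 days the direction was shared and the size was not clearly different. Of the 85 genes tested at both days, 74 were called lower at both, among them 72 of the 77 core genes, beside 17.8% of all 13758 genes tested at both. Rpl10a and Rps2 were called lower at day 3 alone, and Rpl27, Rpl22l1 and Rpl36al at day 0 alone. The genotype effect was more negative at day 3 for 79 of the 85, by a median of 0.27 on the log2 scale, yet in edgeR's test of that difference 0 genes were called in either direction, beside 16.8% of all genes tested (9.94% higher and 6.89% lower). At an unadjusted p under 0.05 there were 20 genes, and DESeq2 called 8 lower. For neither count was the share over all genes taken, so neither can be read as more than usual. The result varied with the samples kept: leaving out single samples gave 0 to 28 genes called lower, and the 28 were without control replicate 3 of day 3. Rplp0 had the largest difference (−0.59, edgeR adjusted p 0.058, SE 0.196). Across the 77 core genes the effects of day 0 and day 3, measured in separate samples, had a Spearman rho of 0.50 and a Pearson r of 0.56, as a description over genes that are not independent.

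The change from day 0 to day 3 was small in controls and downward in cKO cultures. Day, BMP2 and count table changed together and cannot be told apart. These comparisons share samples with those above. In controls 9 of 85 genes were called higher and 9 lower (median 0.02), beside 28.1% and 28.8% (56.9% in either direction) of all 14909 genes tested. Rpl39 rose most (log2 change 0.51, edgeR adjusted p 0.00302), followed by Rpl22 (0.43) and Rpl23 (0.38). Rpl27 fell by 0.64, Rpl22l1 by 0.59, Rpl36al by 0.58, Rpl37rt by 0.48 and Rps2 by 0.41. Without control replicate 3 of day 3, 23 genes were called higher. In cKO cultures 0 were called higher and 37 lower, beside 32.4% and 29.8% (62.2% in either direction) of all genes, with a median of −0.25, and DESeq2 gave 0 and 40. Total-count scaling gave 19 lower here, and 18 higher and 3 lower in controls. Rps2, a small subunit protein at the entry of the message, fell by 0.81, Rpl12 by 0.77 and Rpl7a by 0.68 (edgeR adjusted p 1.14e-04, 9.95e-04 and 4.02e-04).

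As a share of all counts, ribosomal protein genes took 4.05% ± 0.041 in control and 3.57% ± 0.042 in cKO libraries at day 0 (SD, n = 3 each). At day 3 they took 5.08, 4.20, 3.69 and 4.83% in controls and 3.04, 3.41, 3.33 and 2.50% in cKO libraries. Again the lowest control, replicate 3, was the nearest to the cKO libraries, and cKO replicate 4 was the lowest of all. In cartilage the share was 3.90% ± 0.292 in control and 4.52% ± 0.746 in cKO libraries (SD, n = 4 each), with overlapping ranges. Genes of ribosomal RNA held 9.96 to 23.6% of the counts in those cartilage libraries, and without them the shares of ribosomal protein genes were between 4.47 and 4.79% for controls and between 5.01 and 6.59% for cKO samples, ranges that did not overlap (an alternative chosen after seeing the data). In the estimated counts the ranges did overlap, at 7.79 to 8.30% for controls and 7.53 to 9.57% for cKO samples. Per length (counts divided by annotated exon length), 69 of the 77 core genes were among the 500 highest genes of control cultures at day 0, and 71 at day 3. These values come from bulk RNA, in which fewer cells of a type and less RNA per cell cannot be told apart. The pseudogene rows left out by the choice of symbols held 0.203 to 0.412% of counts in the cultures.

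**Figure D3:**
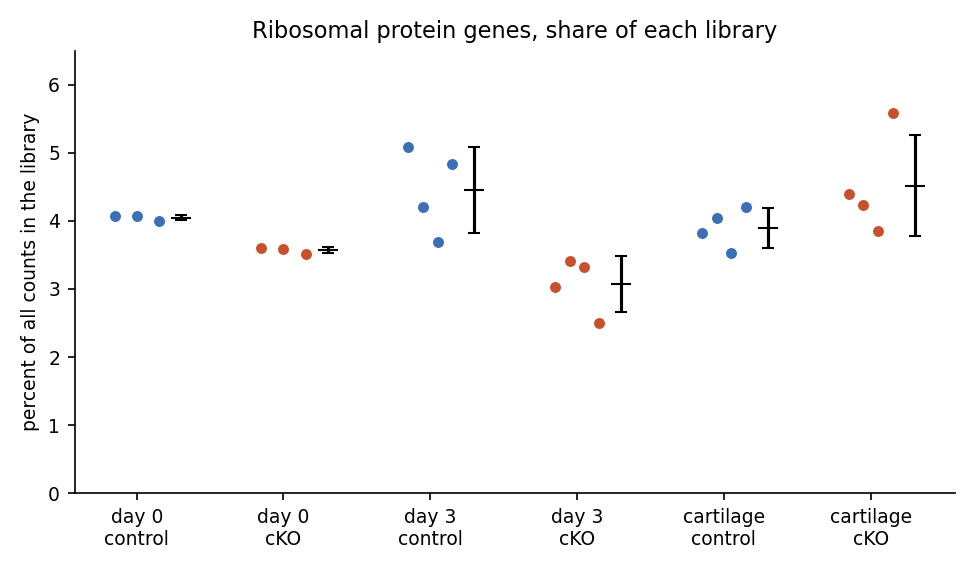
Share of all counts in each library that fell on ribosomal protein genes (vertical axis, percent), for control (blue) and cKO (orange) samples. Bars give the mean and SD. The share is lower in cKO cultures, at 3.57% against 4.05% at day 0 and 3.07% against 4.45% at day 3, and the cartilage groups overlap.

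Markers of cell type moved in the same comparisons. The summed level of 12 chondrocyte markers, among them Col2a1, Acan and Sox9, was 156200 to 165290 CPM in control and 53855 to 65883 CPM in cKO libraries at day 0. At day 3 it was 106740 to 131130 CPM in control and 1818 to 19162 CPM in cKO libraries. The summed level of 14 skeletal muscle markers was 13.7 to 14.9 CPM in control and 72.7 to 77.4 CPM in cKO libraries at day 0, and 3.11 to 4.03 CPM against 223.2 to 2865 CPM at day 3. Of those 14, 8 (Myod1 and Myog included) were at the floor of 3 counts in all day 3 controls and 0 in the cKO libraries. In cartilage the 12 chondrocyte markers summed to 75045 to 110780 CPM in control and 36932 to 68247 CPM in cKO samples, and the 14 blood and myeloid markers to 319.7 to 1434 against 87.3 to 541.5 CPM. The 11 muscle markers in that table summed to 21.6 to 24.8 CPM in control and 67.8 to 109.3 CPM in cKO samples. At day 0 blood and myeloid markers summed to 160.6 to 166.1 CPM in control and 77.6 to 92.0 CPM in cKO cultures, and 8 osteoblast and fibroblast markers to 3870 to 5841 against 2052 to 2820 CPM. At day 3 the osteoblast and fibroblast sum went the other way, with 9184.5 to 10176 CPM in control and 11429 to 13514 CPM in cKO cultures. The blood and myeloid sum overlapped at day 3, with 119.65 to 148.31 CPM in control and 109.2 to 395.06 CPM in cKO cultures. The part of these shifts in the ribosomal protein differences was not tested.

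Against this downward block, 2 autosomal copies of X-linked genes were called higher in all 3 settings, and no other gene of the 92 was. Of all genes tested, 33% were called higher at day 0, 25.5% at day 3 and 3.15% in cartilage. The share of all genes called higher in all 3 was not counted. Rpl39l, on chromosome 16 (10170226 to 10174911, plus strand, GRCm38), is the copy of Rpl39, a small protein of the exit tunnel. It had 8.68, 9.40 and 9.25 CPM in day 0 controls and 57.7, 54.8 and 56.3 CPM in cKO samples, a log2 fold change of 2.63 (edgeR adjusted p 8.84e-10, SE 0.050). At day 3 the controls had 11.5, 5.74, 4.15 and 7.57 CPM and the cKO samples 56.7, 55.4, 53.7 and 63.3 CPM (2.99, edgeR adjusted p 7.21e-05, SE 0.272). In cartilage the controls had 12.0, 11.9, 11.01 and 24.2 CPM and the cKO samples 105.8, 88.3, 105.3 and 122.3 CPM (2.77, edgeR adjusted p 2.17e-07, SE 0.20). The groups did not overlap in any setting. The 7 cKO cultures of both days, scaled separately by day, lay within 53.7 to 63.3 CPM.

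Rps4l, on chromosome 6 (148354656 to 148355598, plus strand), is a copy of Rps4x, a small subunit protein, and the annotation calls it a transcribed processed pseudogene. It had 40.3, 34.6 and 43.9 CPM in day 0 controls and 112.3, 114.2 and 115.1 CPM in cKO samples (log2 fold change 1.53, edgeR adjusted p 2.9e-07, SE 0.073). At day 3 it had 45.2, 33.5, 29.99 and 30.8 CPM in controls and 104.9, 112.6, 105.7 and 92.3 CPM in cKO samples (1.58, edgeR adjusted p 5.53e-05). In cartilage it had 37.5, 26.5, 37.6 and 36.0 CPM in controls and 103.3, 114.6, 106.2 and 97.3 CPM in cKO samples (1.61, edgeR adjusted p 3.8e-06). The means of the 3 settings were 39.6, 34.9 and 34.4 CPM in controls and 113.9, 103.8 and 105.3 CPM in cKO samples. Genotypes did not overlap in any setting. Each setting was scaled on its own and cartilage was measured by another method, so levels cannot be compared between settings. Neither gene's effect differed between the days in the test of that difference (Rpl39l 0.35, edgeR adjusted p 0.48, and Rps4l 0.03, edgeR adjusted p 0.933).

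Another such copy, Rpl10l on chromosome 12 (66283379 to 66284401, minus strand), the germ-line copy of Rpl10, was present at low counts in cKO cultures and at or under the floor of 3 counts in controls. At day 0 the controls had 1, 2 and 2 counts and the cKO samples 24, 16 and 16. With the controls set at the floor of 3 counts per library, the level was at least 6.32-fold higher. It passed the filter on low counts through the cKO samples alone, so its call, 1 of the 3 upward calls of day 0, is given no weight. At day 3 the counts were 0, 0, 0 and 0 in controls and 13, 9, 6 and 5 in cKO samples, at least 2.40-fold higher, below the filter and without a test. In cartilage the estimated counts list it at 0 in all 8 samples. There the floor of 3 counts was 1.01 to 1.74 CPM, above the means of 0.40 and 0.46 CPM in cKO cultures. Those values therefore cannot show absence. Rpl36al, the autosomal copy of X-linked Rpl36a, did not follow in the main fits: its log2 fold change was −0.31 at day 0, −0.09 at day 3 and 0.46 in cartilage (edgeR adjusted p 7.16e-05, 0.584 and 0.146). In the estimated counts of cartilage Rpl36al was called higher (0.44, edgeR adjusted p 0.0403).

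**Figure D4:**
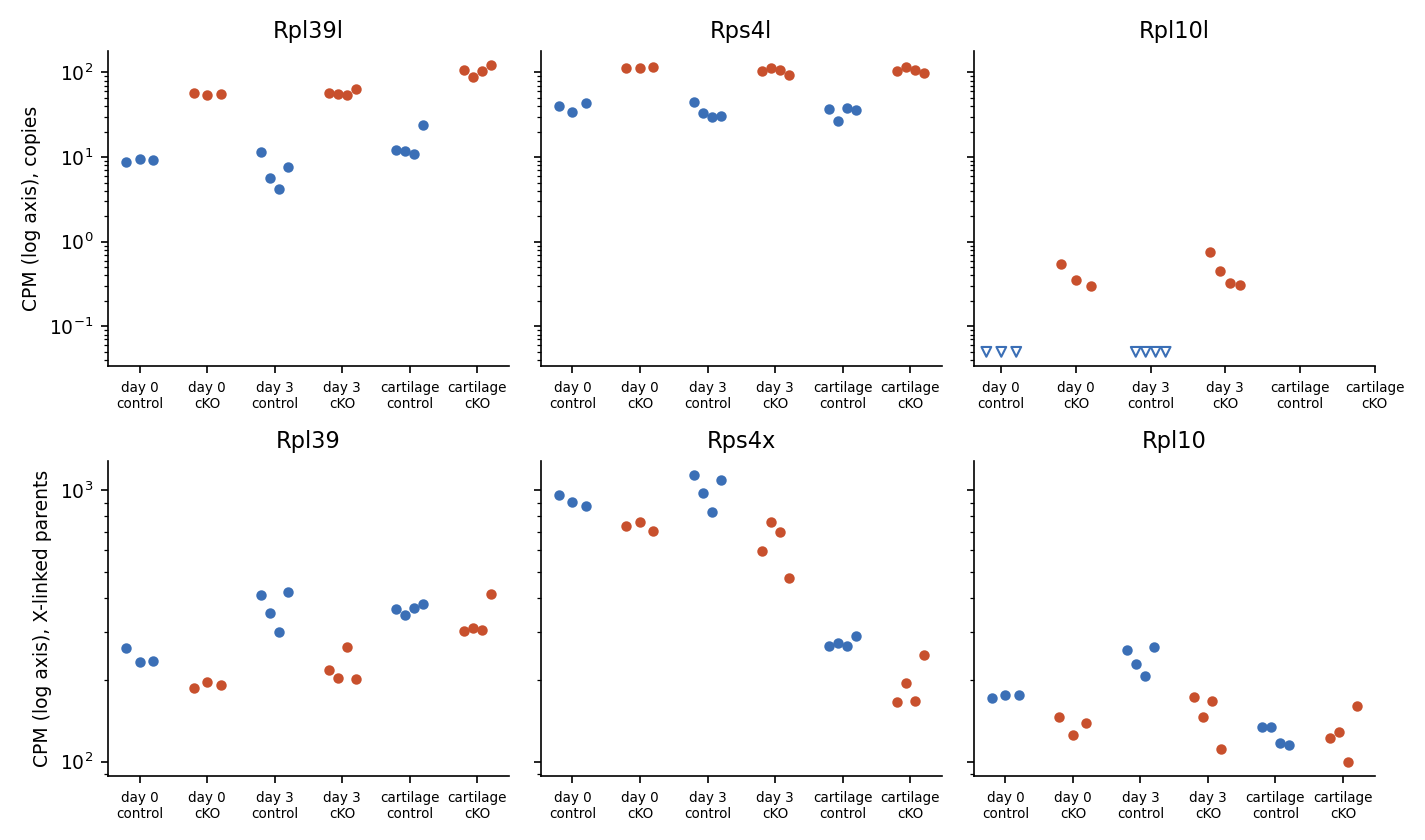
CPM of each library on a log axis (vertical) for 3 autosomal copies (top) and their X-linked parents (bottom), in control (blue) and cKO (orange) samples of each setting (horizontal). Triangles mark libraries under 0.05 CPM, and Rpl10l in cartilage is not drawn. All cKO points of Rpl39l and Rps4l lie above all control points, while those of the parents lie below or overlap.

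The parents were lower where the copies were higher, at least in culture. All 4 X-linked core genes (Rpl10, Rpl36a, Rpl39 and Rps4x) were called lower at day 0 (median −0.33) and at day 3 (median −0.69), as were most core genes. At day 0 Rpl39 stood at 243.2 ± 16.3 CPM in controls and 191.8 ± 4.83 CPM in cKO samples (SD, n = 3 each). The day 3 values were 371.2 ± 56.2 and 221.5 ± 29.1 CPM (SD, n = 4 each). In cartilage it did not pass the test (−0.14, edgeR adjusted p 0.581). Of the counts on Rpl39 and Rpl39l together, the copy held 3.63% in controls and 22.7% in cKO samples at day 0, 1.86% and 20.7% at day 3, and 3.85% and 24.1% in cartilage. In the estimated counts of cartilage they were 2.18% and 13.8%. For Rps4l beside Rps4x the shares were 4.16% and 13.4%, 3.34% and 14.3%, and 11.1% and 35.7%. In the estimated counts of cartilage they were 2.41% and 6.38%, with the level of Rps4x in controls 5.27-fold that of controls in the main table. In each pair of the main tables the groups did not overlap, with a two-sided exact permutation p of 0.10 at day 0 and 0.029 in the others, the smallest possible with 3 or 4 samples a group. Over the 20 pair tests the adjusted values were 0.133 and 0.0571, so no share passed 0.05. Other copies also took a larger share in cKO samples at day 3, without overlap. These were Rpl36al (37.3% and 47.7%), Rpl22l1 (17.3% and 20.9%), Rpl7l1 (11.1% and 14.4%) and, at low counts, Rpl10l (0% and 0.30%). The share of Rps27l overlapped there. At day 0 the share of Rpl36al was 52.0% and 50.1%, and in cartilage that of Rpl22l1 was 9.82% and 5.67%. Per exon length the copy's share at day 0 was 6.10% in control and 33.6% in cKO cultures for Rpl39l, and 6.97% and 21.1% for Rps4l.

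The best alignment of their transcripts to the parent had 84.8% identity over 171 bases for Rpl39l, 79.7% over 814 bases for Rps4l and 84.3% over 664 bases for Rpl10l. The 250 bases before the annotated start of 2 copies and their parents are shown because DNA methylation, which Dnmt1 maintains, falls on CpG dinucleotides; the capitals mark each CpG (the letters CG, the same on both strands). The sequences are from RefSeq on GRCm38.p6, 5′ to 3′ on the gene's strand, at chr16:10169978-10170227 (plus), chrX:37085223-37085472 (minus), chr12:66284402-66284651 (minus) and chrX:74270566-74270815 (plus).

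Rpl39l: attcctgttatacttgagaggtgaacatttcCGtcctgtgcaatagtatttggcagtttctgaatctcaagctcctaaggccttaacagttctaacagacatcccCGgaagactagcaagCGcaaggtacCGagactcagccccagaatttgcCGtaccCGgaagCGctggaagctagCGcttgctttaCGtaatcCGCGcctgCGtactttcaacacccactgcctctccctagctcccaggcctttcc

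Rpl39: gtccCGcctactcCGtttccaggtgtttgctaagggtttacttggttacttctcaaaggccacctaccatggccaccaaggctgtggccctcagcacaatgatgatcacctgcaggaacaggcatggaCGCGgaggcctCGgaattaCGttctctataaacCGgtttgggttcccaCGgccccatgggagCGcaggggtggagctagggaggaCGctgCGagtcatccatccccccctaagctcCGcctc

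Rpl10l: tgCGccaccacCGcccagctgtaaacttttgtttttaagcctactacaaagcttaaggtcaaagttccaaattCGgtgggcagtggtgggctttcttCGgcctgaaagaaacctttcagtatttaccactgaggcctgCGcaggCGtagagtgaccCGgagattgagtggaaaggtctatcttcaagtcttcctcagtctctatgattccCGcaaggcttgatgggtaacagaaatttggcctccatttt

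Rpl10: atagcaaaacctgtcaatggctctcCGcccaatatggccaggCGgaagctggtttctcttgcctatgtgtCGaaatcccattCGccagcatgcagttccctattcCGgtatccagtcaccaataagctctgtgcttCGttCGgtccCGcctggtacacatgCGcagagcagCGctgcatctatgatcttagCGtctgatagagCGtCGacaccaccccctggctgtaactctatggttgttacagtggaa

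These stretches hold 12, 12, 8 and 13 CpG. Counted over 300 bases (250 before the start and 50 after), Rpl39l and Rpl39 had 17 each, Rpl10l 13 and Rpl10 17. The median was 21 over 67 windows of 57 core genes and 7 over all 32851 promoter windows. Rpl36al, the copy that was not called higher in any setting of the main fits, had 42, and Rps4x had 13. No such stretch is given here for Rps4l, the copy of Rps4x. Whether the number of CpG and the changes are related was not tested. Methylation itself was not analysed here.

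For other copies the counts cannot be split with confidence. The transcript of Rps27rt is identical to Rps27 over 341 bases, that of Rpl37rt has 99.7% identity to Rpl37 over 344 bases, and that of Rps12l1 is identical to Rps12 over 399 bases. In the culture tables Rps27 stood near 8 CPM and Rps27rt near 212 CPM in day 0 controls. In control cartilage of the main table the order was the opposite, 231.1 ± 19.998 and 48.97 ± 4.10 CPM (SD, n = 4 each). In the estimated counts of the same samples the means were 30.2 CPM for Rps27 and 281.9 CPM for Rps27rt. The order in cartilage thus depended on the count table for Rps27 and Rps27rt. Their sum was lower in cKO cultures at day 0, 220.2 ± 6.44 against 183.6 ± 4.42 CPM (SD, n = 3 each). At day 3 the ranges overlapped, with 231.8 to 308.2 CPM in control and 195.4 to 245.5 CPM in cKO cultures. The sum was higher in cKO cartilage, 280.0 ± 17.5 against 470.9 ± 55.0 CPM (SD, n = 4 each). Rps27l, a p53-regulated paralog that differs more from Rps27 (76.4% identity over 254 bases), was not called in any setting (−0.09, −0.28 and 0.24). Rpl7l1, a paralog with a part in subunit assembly, was likewise not called (0.03, −0.21 and 0.18). Rpl22l1 was lower in cartilage without passing the test (−0.69, edgeR adjusted p 0.0522). Rpl3l, the striated muscle copy of Rpl3, had at most 4 counts in any culture, although the muscle markers above rose in cKO cultures at day 3.

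In cartilage taken from the animal few of the genes were called. Of the 92 genes, 83 passed the filter, copies included, and calls were upward for 5 and downward for 2, beside 3.15% and 3.04% (6.19% in either direction) of all 8793 genes tested. Of the core genes, 0 of 44 in the large subunit and 2 of 31 in the small subunit were called higher, with 1 lower in each, and the other 3 upward calls were copies. The median log2 fold change over the 83 was 0.14 and that over all genes tested 0.01. Every cKO sample was above every control in 20 of the 83, beside 7.12% of all genes tested. The median depended on 1 library, since without cKO replicate 4 it was 0.03. In that library the median core gene stood 0.35 above the controls, while the other cKO libraries stood at 0.09, 0.05 and −0.06.

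Besides Rpl39l and Rps4l, the genes called higher in cartilage were Rps27rt (0.85), Rps27 (0.73) and Rps19 (0.60), and those called lower were Rpl15 (−0.55) and Rps4x (−0.51). Rps19, whose loss causes Diamond-Blackfan anemia in people, had 920.1, 883.1, 871.4 and 882.4 CPM in controls and 1319.9, 1247, 1215 and 1617 CPM in cKO samples (edgeR adjusted p 0.0179, SE 0.140). No samples overlapped, but the call was lost when 5 of the 8 samples were left out singly (log2 fold change 0.48 to 0.66, edgeR adjusted p up to 0.0736). In culture Rps19 was lower in cKO samples (−0.19 and −0.49). Rplp0, the most reduced core gene at day 3, had 1217, 1199.6, 1258 and 1207 CPM in control cartilage and 1220, 1092, 1005 and 1365 CPM in cKO cartilage, groups that overlapped (−0.06, edgeR adjusted p 0.836).

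The calls in cartilage varied with the count table. In the table of estimated counts 9 of 86 genes were called higher and 0 lower (median 0.17), beside 6.74% of all 10872 genes called in either direction. Those 9 were Rpl39l, Rps4l, Rps27rt, Rps27, Rps19, Rpl30, Rpl36al, Rpl37 and Rps15a. Rpl15 and Rps4x had log2 fold changes of 0.05 and 0.02 there (edgeR adjusted p 0.832 and 0.942), so neither fall held. The tables also differed in level. Among the 77 core genes, 12 were over 5-fold higher in the estimated counts of control cartilage, 2 were over 5-fold lower, and 43 were within 2-fold. Rpl24 had a mean of 4.26 CPM in one and 478.6 CPM in the other, and Rpl23a 6.40 and 1392 CPM, and both were below the filter in the main table. Rps12l1 had 1256 to 1716 CPM in the estimated counts and 0 in every culture. Rpl39l and Rps4l had nearly the same level in both tables.

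**Figure D5:**
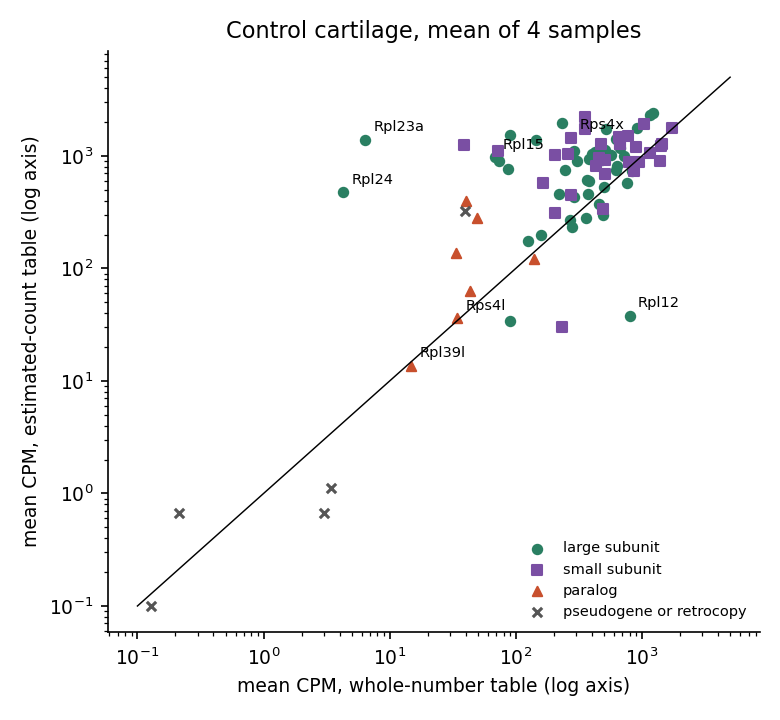
Mean CPM of each gene in the 4 control cartilage samples, in the whole-number table (horizontal, log axis) and in the estimated counts (vertical, log axis); the line marks equal values, and means under 0.1 are drawn at 0.1. Rpl24 and Rpl23a lie far above the line and Rpl12 below it, while Rpl39l and Rps4l lie on it.

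The start of the core genes was compared next, since a pyrimidine run there is the known shared feature of these messages. In a window of 20 bases on either side of the annotated start, a run of 6 or more C or T in any order on the gene's strand was present in 42 of 67 windows of core genes (62.7%) and in 38.1% of all 32851 windows. The same run on the opposite strand was present in 20.9% and 40.7%. RefSeq windows were matched for 57 of the 77 core genes and 67 of all 92 genes. Shown are 3 genes with the largest falls at day 3 (Rplp0, Rpl13a and Rpl12), followed by Rps2 and Rpl27, which were called on 1 day alone, and the copy Rpl39l. The capitals mark the longest run of C or T. The positions on GRCm38.p6 are chr5:115559447-115559487 (plus), chr7:45128725-45128765 (minus), chr2:32961692-32961732 (plus), chr17:24720043-24720083 (plus), chr11:101442225-101442265 (plus) and chr16:10170208-10170248 (plus).

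Rplp0: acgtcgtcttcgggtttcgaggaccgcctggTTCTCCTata

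Rpl13a: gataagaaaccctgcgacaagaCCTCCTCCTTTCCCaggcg

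Rpl12: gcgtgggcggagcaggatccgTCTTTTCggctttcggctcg

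Rps2: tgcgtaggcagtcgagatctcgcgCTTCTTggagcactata

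Rpl27: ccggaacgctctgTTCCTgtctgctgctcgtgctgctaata

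Rpl39l: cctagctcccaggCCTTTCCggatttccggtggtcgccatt

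The longest runs were 7, 14, 7, 6, 5 and 7 bases. As a description, the median log2 fold change was −0.30 for the 40 core genes with a run and −0.24 for the 17 without at day 0, and −0.50 and −0.62 at day 3. In cartilage it was 0.08 for 40 with a run and 0.15 for 16 without. Whether the run and the change are related was not tested. The 77 core genes lay on 19 chromosomes, with at most 14 on any one (chromosome 7) and 4 on the X.

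Other genes of the translation pathway were counted in the same fits. The shares of all genes called higher and lower, against which each list below can be read, were 33% and 31.6% at day 0, 25.5% and 22.6% at day 3, and 3.15% and 3.04% in cartilage. Among 40 elongation and initiation factors, 4 rose and 21 fell at day 0 (median −0.11), 4 and 15 at day 3 (−0.15), and 2 and 1 in cartilage (0.12). Tpt1, whose message also carries a pyrimidine tract, was lower in all 3 settings (−0.56, −0.87 and −0.51, edgeR adjusted p 6.15e-06, 6.12e-04 and 0.0424). Eef1b2, a subunit of the exchange factor for elongation factor 1, fell by 0.76 at day 3. Eif4ebp1, the repressor of cap-dependent initiation that mTORC1 switches off, was lower at day 0 (−0.62) and day 3 (−0.72) and higher in cartilage (0.51, edgeR adjusted p 0.0268). Of the ubiquitin-type fusions and Rack1, a scaffold on the small subunit, 4 of 4 were called lower at day 0 and 2 at day 3 (Rack1 −0.65 and the member Rps27a −0.58).

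Genes that build ribosomes were called in both directions, at shares that can be read against the same backgrounds. Of 79 nucleolar processing genes, 21 were called higher and 30 lower at day 0 (median −0.01), 18 higher and 5 lower at day 3 (0.06), and 3 higher and 0 lower of 77 in cartilage (0.28). Sbds and its partner Efl1, which free new large subunits, rose at day 0 (0.32 and 0.38), and Ltv1, a small subunit assembly factor, fell by 0.50 at day 0 and 1.12 at day 3. In cartilage Dkc1, the pseudouridine synthase of ribosomal RNA, rose by 0.82 (edgeR adjusted p 0.0014). From day 0 to day 3, 71 of the 79 fell and 3 rose in controls (median −0.69), beside 28.8% and 28.1% of all genes. Of 20 RNA polymerase I genes, 6 were called higher and 3 lower at day 0, 1 and 0 at day 3, and 0 and 0 of 16 in cartilage. Polr1a, the largest subunit, fell by 0.49 at day 0.

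Among 27 genes of mTORC1 signalling and of regulators of ribosomal protein messages, 4 were called higher and 16 lower at day 0 and 5 and 10 at day 3, and 1 of 26 was higher in cartilage. Mtor itself rose by 0.52 at day 3, Sesn2 fell by 0.72 at day 0 and Sesn3 by 0.77 at day 3 (both restrain mTORC1), and Mxi1, an antagonist of Myc, rose by 0.49 and 0.75. Of 22 genes of ribosome quality control and import, 10 were called higher and 5 lower at day 0, 4 and 4 at day 3, and 1 of 20 higher in cartilage. The p53 targets Cdkn1a and Mdm2 rose at day 0 (1.004 and 0.31, edgeR adjusted p 2.06e-07 and 1.59e-05). Hbs1l, which frees stalled ribosomes, fell by 0.50 at day 0 and 0.47 at day 3. These lists were drawn up with earlier results of these data known, and their counts describe the lists alone.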

How the data were processed

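RNA of 14 cultures and 8 cartilage samples was measured in bulk. For the cultures the deposited values are estimated counts (stranded NEBNext Ultra II Directional libraries, per the labels' protocols), rounded here to whole numbers. For cartilage (BRB-seq, a pooled 3′ method with molecular identifiers, per the labels' protocols) the authors deposited a table of whole-number counts and a table of estimated counts. The planned design had named the 2 cartilage tables the wrong way round: the table by which the genes were chosen holds the whole-number counts and was the main one, and the other was an alternative. The submitters' processing notes name UMI-tools 1.1.1, Trim Galore 0.6.7, HISAT2 2.2.1, featureCounts 2.0.1, DESeq2 1.34.0 and GRCm38, with no role or order. How reads shared by near-identical genes were counted is not given in the sources used here. Symbols were matched for 34582 of 34866 culture gene identifiers.

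Genes were filtered with filterByExpr (minimum count 10, minimum total 15) and fitted with edgeR 4.0.16 in R 4.3.3 (TMM scaling, quasi-likelihood test, Benjamini-Hochberg adjustment over all genes tested). Sex was a covariate in cartilage. Each genotype comparison used its own samples, and the comparisons of days used all 14 cultures. Alternatives were DESeq2 1.42.0, other scalings and filters, a replicate block, the estimated counts, and leaving out each sample. The steps were tested on simulated data. The genes and lists were chosen with earlier results of these data known. Named were Dnmt1, the paralog, stalk, X-linked and 5S genes, and per comparison up to 5 called genes in each direction with the largest change, no overlap and a mean log2 CPM of at least 1 (per pathway list, up to 2). Rpl27, Rpl10a, Rps2, Rps27, Rpl24, Rpl23a and the retrocopies were named after their values were seen. One gene that the rule names is not reported here. Transcripts were aligned with blastn 2.17.0. A floor of 3 counts covers counting error only.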

Additional observations from a re-analysis of the deposited data

Results flagged for a closer look

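In groups of 4 samples, a sample was marked when its gap to the nearest other sample was past Dixon's critical share of the group's range, which chance gives in about 1 of 20 groups. Of 124 groups of named genes, 8 had such a sample. In cKO replicate 4 of day 3, Rpl12 stood at 20.9 CPM (the others 32.1 to 34.2) and Rpl7l1 at 83.7 CPM (112.2 to 117.3). In control cartilage, replicate 2 had Rpl22l1 at 37.5 CPM (41.3 to 41.7) and Rps4l at 26.5 CPM (36.0 to 37.6). Control cartilage replicate 4 had Rpl39l at 24.2 CPM (11.01 to 12.0) and Rps2 at 1092 CPM (1019 to 1024). In cKO cartilage, replicate 2 had Rpl29 at 51.6 CPM (66.3 to 67.2) and replicate 4 had Rpl39 at 414.3 CPM (303.1 to 309.6).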

How the results depend on the processing

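The downward median of both cultures kept its sign under every alternative run. Total-count scaling, under which the median of all genes was 0.12 at day 0, gave 5 genes higher and a median of −0.19 there. It gave 18 higher and 3 lower for control cultures over time, and 19 lower with a median of −0.16 for cKO cultures. The difference in library share at day 0 was −0.77 percentage points with TMM-scaled totals. With all 14 cultures in 1 fit, 33 genes were lower at day 0. In cartilage the count of lower genes was 1 with DESeq2, 0 with total counts and 0 with estimated counts, which gave 9 higher, with Rpl15 at 0.053 and Rps4x at 0.022 (log2), both negative in the main table. For the difference between days, DESeq2 gave 8 lower, and RLE and total-count scaling 1 each. Leaving out single samples gave 75 to 78 lower at day 0, 64 to 78 at day 3, 0 to 2 lower and 4 to 8 higher in cartilage, 0 to 28 lower and 0 to 1 higher for the difference between days, 5 to 23 higher and 6 to 14 lower in controls over time, and 26 to 48 lower in cKO cultures. The cause was not tested. Same-numbered samples did not deviate together (correlations −0.03 to 0.25 at day 0, −0.15 to −0.08 at day 3 and −0.08 to 0.26 in cartilage). With a replicate block, 78 genes were lower at day 0, 58 at day 3, and 5 higher and 2 lower in cartilage, and Rplp2 and Rps27rt lost their calls at day 3 (edgeR adjusted p 0.0606 and 0.0506). Leaving out ribosomal RNA genes, an alternative chosen after seeing the data, kept 5 higher and 2 lower in cartilage.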
